A study of Mus musculus with 17 samples.

Results

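Germinal centre (GC) B cells of wild type (WT) mice were set against activated B cells of the same genotype. These 2 groups make up 6 of the 17 libraries of the study: GC replicates 1, 3 and 4 and activated replicates 1, 3 and 4, chosen by their labels alone. All were mouse spleen B cells separated by fluorescence-activated sorting, and RNA was sequenced after full-length cDNA amplification (SMARTSeq v2) from very small inputs. The study also holds naive B cells, and B cells of p52ki mice, in which p52, an NF-kB subunit that is cut from the Nfkb2 product, was altered by knock-in. Its title names a complex of this subunit with the factor ETS1 and GC formation. Both groups described here carry no altered allele according to their genotype label. The labels give no age, sex, strain, immunization, sort gates, or number of animals behind a library. Since no label says that replicates are separate animals, the p-values below measure the spread between these samples, which may in part be technical.

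In a GC, B cells that have met antigen divide fast, mutate their antibody genes, and compete for help from T cells. Division and mutation take place in the dark zone, and selection in the light zone. Activated B cells have received signals through their antigen receptor or from T cells but have not, or not yet, taken on this state, and many recirculation receptors that guide B cells through the spleen are lost on entry into the GC.

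Counts assigned to genes totalled 7625940, 4926763 and 9936589 in GC replicates 1, 3 and 4, against 6211583, 8553748 and 8599156 in activated replicates 1, 3 and 4. GC replicate 3 stood apart. It had 11232 genes with a read, against 18449 and 19135 in the other GC libraries and 16745 to 19303 in activated libraries, and when all libraries were thinned to its depth the other 5 still had 16550 to 18372. Of 8169 genes at 10 CPM (counts scaled to a common library total) or more in both other GC libraries, 626 had no count in GC replicate 3, against at most 2 such genes in any other library. Its rank correlation with GC replicates 1 and 4 was 0.77 and 0.79, against 0.97 between these 2 and 0.93 to 0.97 among activated libraries. Results are therefore given with all 3 GC libraries, and changed counts and calls of the lists and genes below are also given without GC replicate 3.

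The B cell label was checked first. Pan-B markers summed to 23912, 34523 and 28972 CPM in GC libraries and to 55274, 36070 and 44795 CPM in activated libraries, so every GC sum was below every activated sum. Of these 14 markers 1 was called, Ly6d, lower in GC cells (log2 -3.06, adjusted p = 0.0489; -3.93 without GC replicate 3), and 3 were called lower without GC replicate 3. Cd3e and Cd3d of T cells were at 0 to 0.719 CPM in GC libraries and 0.815 to 6.07 CPM in activated libraries, while S100a8 and S100a9 of neutrophils reached 1.83 CPM at most in any of the 6. The T cell list summed to 329, 253 and 346 CPM in GC libraries and 678, 413 and 551 CPM in activated libraries, of which most was Cd2, a gene that mouse B cells express, and 0 of 9 tested were called, with 1 higher and 2 lower without GC replicate 3. Markers of NK cells summed to 4.66, 0.656 and 9.86 CPM in GC libraries, against 34.6, 17.9 and 43.3 CPM in activated libraries. Myeloid markers, of macrophages, monocytes and dendritic cells together, stood at 737, 850 and 755 CPM in GC libraries, against 795, 515 and 664 CPM in activated libraries, with 1 of 15 called higher and 0 lower (1 and 2 without GC replicate 3). Erythroid and platelet markers reached 237 CPM in 1 GC library and 322 CPM in 1 activated library. Stromal markers summed to 50.9, 14.6 and 34.8 CPM in GC libraries, against 91.0, 171 and 111 CPM in activated libraries. Most of each sum was a single gene, Pecam1, with 49.1, 14.6 and 31.3 CPM in GC libraries against 86.2, 166 and 103 CPM in activated libraries. Of the stromal markers 2 were tested, neither was called, and both were called lower without GC replicate 3. The part of such cells in the results was not tested. The follicular dendritic cell chemokine Cxcl13 had no count in any of the 6 libraries. In bulk samples like these, fewer cells of a type and less RNA per cell cannot be told apart.

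Of 13208 genes tested, 571 (4.32%) differed at an adjusted p under 0.05 (edgeR's quasi-likelihood test on the 6 libraries, Benjamini-Hochberg adjustment over all genes tested; "called" below). In GC cells 346 (2.62%) were higher and 225 (1.70%) lower, and 496 of the 571 were protein coding. For all 571 the 3 GC libraries lay wholly above or wholly below the 3 activated libraries. Over all tested genes this separation was seen upward in GC cells for 1822 genes (13.8%) and downward for 2524 (19.1%). Without GC replicate 3 there were 1414 higher (10.02%) and 1455 lower (10.3%) of 14114 genes, among them every one of the 571 with the same sign. List counts given below without GC replicate 3 are to be read beside these 2 shares. Leaving out another library cost most calls: 62 genes were called without GC replicate 1, 7 without GC replicate 4, 11 without activated replicate 1, 39 without activated replicate 3 and 0 without activated replicate 4, where 1607 genes had an unadjusted p under 0.05. None of the 571 was thus called without activated replicate 4. The sign of all 571 was the same in each of these fits. That is no check, since leaving out 1 library can hardly turn the sign of a gene without overlap. The median log2 difference of all tested genes was -0.04, and -0.15 with RLE scaling in place of TMM, which gave 307 higher and 262 lower. With DESeq2 797 were higher and 986 lower.

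The transcription factors that define the GC state were among the genes called higher. Bcl6, the repressor that GC B cells depend on (ENSMUSG00000022508, chromosome 16, 23965052 to 23988852 on GRCm38), had 133, 90.0 and 70.9 CPM in GC replicates 1, 3 and 4, against 21.2, 14.98 and 11.5 CPM in activated replicates 1, 3 and 4. The lowest GC library was above the highest activated library, and the log2 difference was 2.62 (SE 0.401, adjusted p = 0.0207). Mybl1, a MYB family factor of dividing GC cells, had 104, 171 and 84.6 CPM in GC libraries, against 5.00, 1.63 and 4.65 CPM in activated libraries (log2 5.00, SE 0.571, adjusted p = 0.0121). Mef2b, which activates Bcl6 transcription, had 280, 205 and 267 CPM in GC libraries, against 23.7, 5.40 and 14.6 CPM in activated libraries (log2 4.12, SE 0.554, adjusted p = 0.0151). Neither of these genes overlapped between the groups. Bach2, a repressor that holds back plasma cell differentiation, differed less: 334, 306 and 238 CPM in GC libraries, against 99.6, 106 and 91.0 CPM in activated libraries (log2 1.57, SE 0.239, adjusted p = 0.0202). The cell cycle factors E2f1 and Foxm1 were also called higher (log2 2.41 and 3.97).

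In all, 6 of 27 GC transcription factors were called higher and 1 lower, with a median log2 difference of 0.37, and without GC replicate 3 the counts were 11 and 5. Zeb2 was the one lower, with 13.1, 2.84 and 6.37 CPM in GC libraries against 56.0, 90.6 and 61.8 CPM in activated libraries (log2 -3.21, SE 0.608, adjusted p = 0.0345; log2 -3.95 without GC replicate 1). General B cell factors of the same list were not called with all 6 libraries, and they differed in direction. Pax5 and Spib overlapped between the groups (log2 0.16 and -0.22, and -0.12 and -0.11 without GC replicate 3). Ebf1 and Foxp1 lay lower in GC cells without overlap (log2 -1.13 and -0.83) and Pou2af1 higher (log2 1.18), and without GC replicate 3 they were called, with adjusted p = 0.0171 for Ebf1, 0.0220 for Foxp1 and 0.00408 for Pou2af1. Irf8 differed by 0.58 with overlap, and was called higher without GC replicate 3 (log2 0.86, adjusted p = 0.0301).

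**Figure D1:**
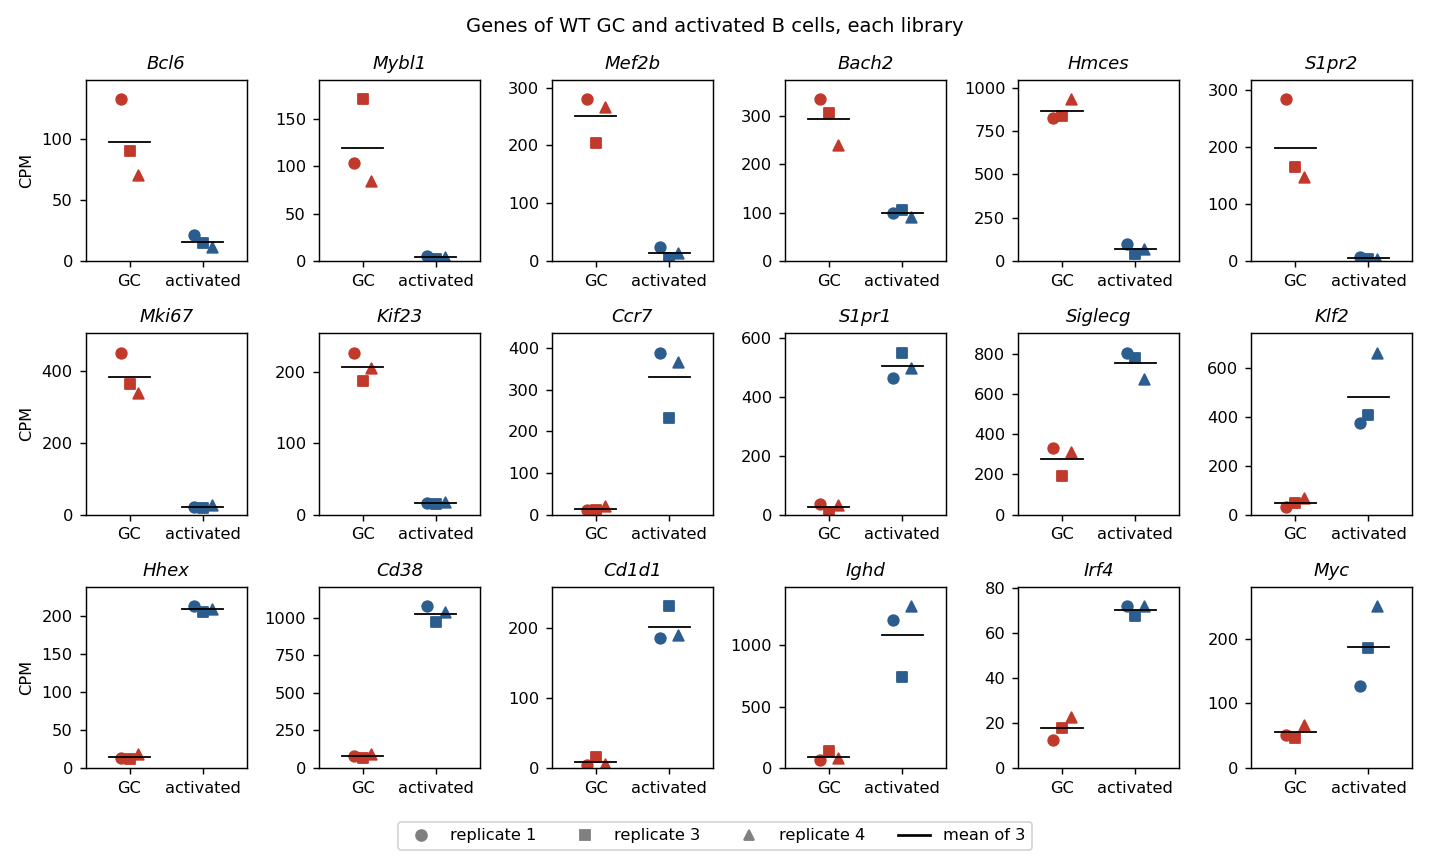
CPM of 18 named genes in each library, with GC cells left of activated cells, a symbol per replicate number and a line at the mean of 3. In every panel the GC libraries lie wholly above or wholly below the activated libraries, and GC replicate 3 (squares) falls inside or near the range of the other GC libraries for most of these genes. All 18 were called with all 6 libraries, so the panels do not measure how GC replicate 3 behaves over all genes.

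Genes of GC signalling and surface had 12 of 26 members called higher and 2 lower (28 listed, median log2 2.06; 17 and 3 without GC replicate 3). S1pr2, the receptor that confines cells to the GC (ENSMUSG00000043895, chromosome 9, 20962361 to 20976781), had 284, 164 and 147 CPM in GC libraries, against 7.85, 2.75 and 3.70 CPM in activated libraries. This log2 difference of 5.40 (SE 0.543, adjusted p = 0.0115) was the highest of the list. Its G protein Gna13 had 331, 229 and 252 CPM in GC libraries, against 86.6, 103 and 88.9 CPM in activated libraries (log2 1.54, adjusted p = 0.0235). Rgs13, which shortens G protein signals, had 430, 297 and 559 CPM in GC libraries, against 97.1, 27.6 and 42.8 CPM in activated libraries (log2 2.94, adjusted p = 0.0301; log2 3.60 without activated replicate 1). Both again separated the groups without overlap.

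Fas, the death receptor used to sort GC cells in many studies, had 227, 156 and 299 CPM in GC libraries, against 36.4, 15.8 and 24.9 CPM in activated libraries (log2 3.15, SE 0.418, adjusted p = 0.0150). Cd38, which mouse GC B cells lack or carry at low levels, went the other way, with 79.5, 66.0 and 93.6 CPM in GC libraries against 1076, 971 and 1034 CPM in activated libraries (log2 -3.69, SE 0.253, adjusted p = 0.00446). Whether Fas or CD38 served as a gate here is not given in the sources used here, so their difference is a check of the sort rather than a finding. Further genes of the list called higher were Rassf6 (239, 159 and 253 CPM in GC libraries, against 7.67, 5.10 and 6.92 CPM in activated libraries, log2 5.05), Basp1 (log2 4.70) and the GTPase gene Nuggc (log2 4.88, and 3.94 without GC replicate 1). Gcsam, a GC motility gene, had 500, 405 and 583 CPM in GC libraries against 44.3, 1.53 and 18.5 CPM in activated libraries, and it was called higher without GC replicate 3 (log2 4.69, adjusted p = 0.00834) and not with it (log2 4.55, adjusted p = 0.0564).

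Antibody mutation was covered by a list of hypermutation and DNA repair genes, 8 of 30 called higher and 0 lower (median log2 1.47; 23 and 0 without GC replicate 3). Hmces, which shields abasic sites in DNA, had 823, 839 and 935 CPM in GC libraries, against 96.6, 43.0 and 68.0 CPM in activated libraries (log2 3.65, adjusted p = 0.0111). Neil1, a DNA glycosylase, had 579, 335 and 523 CPM in GC libraries, against 71.6, 30.7 and 42.7 CPM in activated libraries (log2 3.31, adjusted p = 0.0141). Mbd4, another glycosylase, was called higher as well (log2 2.27). Polh, whose polymerase writes mutations at A and T, had 56.2, 8.30 and 51.3 CPM in GC libraries, against 0.892, 7.54 and 4.18 CPM in activated libraries. It was not called with all 6 libraries (log2 3.18, adjusted p = 0.127) and was called without GC replicate 3 (log2 3.62, adjusted p = 0.00335). Ung, the uracil glycosylase, was low in both groups, at 8.59, 6.34 and 5.55 CPM in GC libraries against 2.14, 2.55 and 2.15 CPM in activated libraries, and was called higher without GC replicate 3 (log2 1.63, adjusted p = 0.0416) and not with it (log2 1.57, adjusted p = 0.254).

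Cell division was covered by several lists. Of 45 spindle and kinetochore genes tested, 33 were called higher and 0 lower, the median log2 difference was 3.19, and all 45 were positive, against 6360 positive of 13208 genes. Without GC replicate 3 all 45 were called higher. Kif23, a kinesin that bundles the midzone of the spindle, had 228, 188 and 206 CPM in GC libraries, against 15.9, 14.9 and 18.3 CPM in activated libraries (log2 3.66, SE 0.259, adjusted p = 0.00446). Aurkb, the kinase of the chromosomal passenger complex, had 172, 158 and 192 CPM in GC libraries, against 23.9, 19.1 and 24.9 CPM in activated libraries (log2 2.94, SE 0.264, adjusted p = 0.00886). The kinetochore scaffold gene Knl1 had 191, 203 and 188 CPM in GC libraries, against 16.4, 10.5 and 20.6 CPM in activated libraries (log2 3.61, adjusted p = 0.00886). In these 3 genes the spread within each group was small beside the gap between groups. Mki67, a marker of cycling cells, had 450, 362 and 337 CPM in GC libraries, against 20.2, 19.3 and 25.3 CPM in activated libraries (log2 4.15, SE 0.274, adjusted p = 0.00446).

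Origin licensing and replication fork genes had 19 of 40 called higher and 0 lower, all 40 positive, with a median log2 difference of 2.09 (36 and 0 without GC replicate 3). Cdc45, part of the replicative helicase, had 94.7, 110 and 113 CPM in GC libraries, against 10.9, 8.26 and 15.03 CPM in activated libraries (log2 3.21, adjusted p = 0.0121). Pola1, the catalytic subunit of polymerase alpha, had 192, 122 and 151 CPM in GC libraries, against 14.99, 16.5 and 24.9 CPM in activated libraries (log2 3.04, adjusted p = 0.0121). For the helicase subunit Mcm3 the values were 460, 181 and 396 CPM in GC libraries, against 25.5, 54.1 and 51.7 CPM in activated libraries (log2 2.98, adjusted p = 0.0228). GC replicate 3 was the lowest GC library for both Pola1 and Mcm3, yet remained above all activated libraries.

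Nucleotide synthesis supplied 7 of 29 called higher and 1 lower (median log2 0.78; 17 and 1 without GC replicate 3). Rrm2, the S phase subunit of ribonucleotide reductase, had 555, 288 and 569 CPM in GC libraries, against 64.3, 39.0 and 72.8 CPM in activated libraries (log2 3.0, adjusted p = 0.0144). The exception was Ctps2, a CTP synthase, with 53.6, 56.2 and 62.0 CPM in GC libraries against 117, 117 and 136 CPM in activated libraries (log2 -1.11, adjusted p = 0.0487).

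Cyclins and CDKs had 12 of 30 called higher and 0 lower (median log2 1.86; 19 and 2 without GC replicate 3). Ccne2, a cyclin of the G1 to S transition, had 150, 171 and 151 CPM in GC libraries, against 22.5, 22.1 and 26.6 CPM in activated libraries (log2 2.73, adjusted p = 0.00886). Among D type cyclins Ccnd3, on which dark zone division depends, had 498, 309 and 427 CPM in GC libraries, against 114, 93.9 and 97.6 CPM in activated libraries (log2 2.01, adjusted p = 0.0144). Ccnd2, a cyclin induced by antigen receptor signals, had 13.0, 113 and 29.4 CPM in GC libraries, against 301, 189 and 219 CPM in activated libraries. Ccnd2 was not called with all libraries (log2 -2.20, adjusted p = 0.162), and was called lower without GC replicate 3 (log2 -3.46, adjusted p = 0.000945). Of 12 cell cycle inhibitors tested of 15 listed, Gadd45b was called higher and Klf2 and Btg1 lower (2 and 4 without GC replicate 3). Cdkn1b, which encodes the inhibitor p27, had 3.31, 0.437 and 5.24 CPM in GC libraries, against 30.7, 14.3 and 15.2 CPM in activated libraries, and was called lower without GC replicate 3 (log2 -2.20, adjusted p = 0.0138) and not with it (log2 -2.71, adjusted p = 0.157).

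Chromosome structure and chromatin genes followed. Condensin, cohesin and anaphase-promoting complex genes had 12 of 26 called higher and 0 lower, with a median log2 difference of 1.72 (20 and 0 without GC replicate 3), Ncapg and Fbxo5 among them (log2 3.80 and 3.0). Chromatin and DNA methylation genes had 9 of 28 called higher and 0 lower (30 listed, median log2 0.76; 14 and 3 without GC replicate 3). Ezh2, the methyltransferase of Polycomb repressive complex 2, had 137, 199 and 112 CPM in GC libraries, against 30.9, 24.1 and 29.5 CPM in activated libraries (log2 2.40, SE 0.317, adjusted p = 0.0144). Dnmt1, which copies DNA methylation after replication, had 231, 142 and 127 CPM in GC libraries, against 22.1, 31.8 and 16.1 CPM in activated libraries (log2 2.84, adjusted p = 0.0163). Tet2, which oxidizes methylated cytosine, had 7.12, 0 and 9.24 CPM in GC libraries, against 34.8, 54.1 and 40.1 CPM in activated libraries. It was called lower without GC replicate 3 (log2 -2.38, adjusted p = 0.00187) and not with it (adjusted p = 0.226).

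Promoters of these lists were searched on both strands for motifs that are known from cell cycle genes, in 300-base RefSeq windows around annotated starts on GRCm38.p6, and some are shown because list members moved together. CCAAT, the box of the factor NF-Y, was in 31 of 46 windows (67.4%) of the 41 spindle and kinetochore genes that matched of 46, against 37.4% of all 32851 windows. TTTGAA, the letters of a common form of the cell cycle homology region, was in 67.4% of the spindle windows, against 17.9% of all, and both were in 50%, against 6.95% of all. TTTGGCGC or TTTCCCGC, forms of the E2F site, were in 12 of 35 windows (34.3%) of the 31 replication genes that matched of 40, against 1.56% of all. A match of letters is a description and not a site. In each window only the motif letters searched for its own list, on either strand, are in capitals. CCAAT letters in the Mcm3 and Pola1 windows, on either strand, are thus left in lower case.
Kif23 (chr9:61946750-61947049, minus strand): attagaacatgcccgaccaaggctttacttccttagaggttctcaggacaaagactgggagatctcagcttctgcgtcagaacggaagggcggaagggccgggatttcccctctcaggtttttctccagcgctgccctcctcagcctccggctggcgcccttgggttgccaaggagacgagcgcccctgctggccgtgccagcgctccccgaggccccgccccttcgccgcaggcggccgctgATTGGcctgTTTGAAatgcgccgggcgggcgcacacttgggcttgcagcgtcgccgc
Cenpf (chr1:189688037-189688336, minus strand): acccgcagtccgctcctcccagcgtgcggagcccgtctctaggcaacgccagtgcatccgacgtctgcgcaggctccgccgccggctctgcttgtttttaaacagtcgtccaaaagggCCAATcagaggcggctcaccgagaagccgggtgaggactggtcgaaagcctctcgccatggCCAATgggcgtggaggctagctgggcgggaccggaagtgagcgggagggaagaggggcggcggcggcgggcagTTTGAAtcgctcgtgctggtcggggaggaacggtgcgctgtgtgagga
Mcm3 (chr1:20820263-20820562, minus strand): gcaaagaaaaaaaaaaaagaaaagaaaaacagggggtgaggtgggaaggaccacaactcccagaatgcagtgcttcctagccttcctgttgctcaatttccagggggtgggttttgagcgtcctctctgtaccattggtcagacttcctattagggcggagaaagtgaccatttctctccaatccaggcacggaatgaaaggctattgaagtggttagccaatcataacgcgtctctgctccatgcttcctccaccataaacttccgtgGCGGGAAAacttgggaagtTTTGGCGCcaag
Pola1 (chrX:93632106-93632405, minus strand): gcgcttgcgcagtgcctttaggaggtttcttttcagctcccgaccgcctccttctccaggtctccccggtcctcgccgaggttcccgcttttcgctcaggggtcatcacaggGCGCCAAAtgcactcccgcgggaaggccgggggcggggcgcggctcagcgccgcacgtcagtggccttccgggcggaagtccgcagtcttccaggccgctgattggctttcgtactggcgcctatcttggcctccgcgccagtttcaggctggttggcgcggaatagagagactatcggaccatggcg
The Kif23 and Cenpf windows hold both spindle motifs, with CCAAT on the opposite strand in Kif23, where it reads ATTGG. Cenpf encodes a kinetochore protein and was called higher (log2 4.05, adjusted p = 0.0115). Mcm3 holds both E2F forms, TTTCCCGC on the opposite strand, and Pola1 holds TTTGGCGC on the opposite strand.

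Genes of the dark zone and the light zone were listed apart. Of 20 dark zone genes 15 were called higher and 0 lower, with a median log2 difference of 3.35 (18 and 1 without GC replicate 3). Several are mitotic genes that the lists above hold too, such as Cdc20, the activator of the anaphase-promoting complex, with 302, 255 and 320 CPM in GC libraries against 15.5, 15.3 and 26.4 CPM in activated libraries (log2 3.94, adjusted p = 0.00720). Cxcr4, the chemokine receptor that draws cells to the dark zone, had 55.8, 110 and 59.6 CPM in GC libraries, against 31.1, 18.1 and 48.8 CPM in activated libraries, and was not called (log2 1.20, adjusted p = 0.226). Of 24 light zone genes 1, Gadd45b, was called higher and 1, Myc, lower. Their median log2 difference was 0.24, and -0.36 without GC replicate 3, where 2 were called higher and 7 lower. The costimulator Cd86 had 206, 141 and 269 CPM in GC libraries, against 101, 122 and 121 CPM in activated libraries (log2 0.84, adjusted p = 0.173; without GC replicate 3 log2 1.06, adjusted p = 0.0158). Cd83, a surface marker of light zone cells, had 759, 726 and 948 CPM in GC libraries, against 630, 404 and 572 CPM in activated libraries (log2 0.60, adjusted p = 0.273).

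Myc, which is switched on by T cell help and antigen receptor signals, had 51.8, 46.3 and 67.2 CPM in GC libraries, against 126, 185 and 250 CPM in activated libraries. All activated libraries were above all GC libraries, and the gene was called lower in GC cells (log2 -1.76, SE 0.330, adjusted p = 0.0335). Of 31 MYC target and ribosome biogenesis genes, 1 was called higher and 1, Myc itself, lower, and the median log2 difference was 0.08. Without GC replicate 3 the counts were 2 and 2, where 10.02% of all genes were called higher and 10.3% lower. The one higher was Odc1, the first enzyme of polyamine synthesis, with 131, 137 and 124 CPM in GC libraries against 48.0, 43.8 and 55.7 CPM in activated libraries (log2 1.41, adjusted p = 0.0278).

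Immediate early genes, which Myc belongs to, are induced within minutes of a signal. Of 21 immediate early genes tested of 25 listed, 4 were called lower and 1 higher (median log2 -1.13; 11 and 1 without GC replicate 3). Jun, a subunit of AP-1, had 24.7, 26.9 and 29.5 CPM in GC libraries, against 62.1, 166 and 168 CPM in activated libraries (log2 -2.29, adjusted p = 0.0335). Ier5 had 95.6, 54.2 and 88.1 CPM in GC libraries, against 250, 370 and 384 CPM in activated libraries (log2 -2.08, adjusted p = 0.0210). Gadd45b, a stress and NF-kB response gene, was the one higher, with 119, 114 and 134 CPM in GC libraries against 34.6, 24.0 and 30.5 CPM in activated libraries (log2 2.04, adjusted p = 0.0150). Heat shock and tissue dissociation genes had 0 of 12 called in either direction, and without GC replicate 3 1 was called higher.

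**Figure D2:**
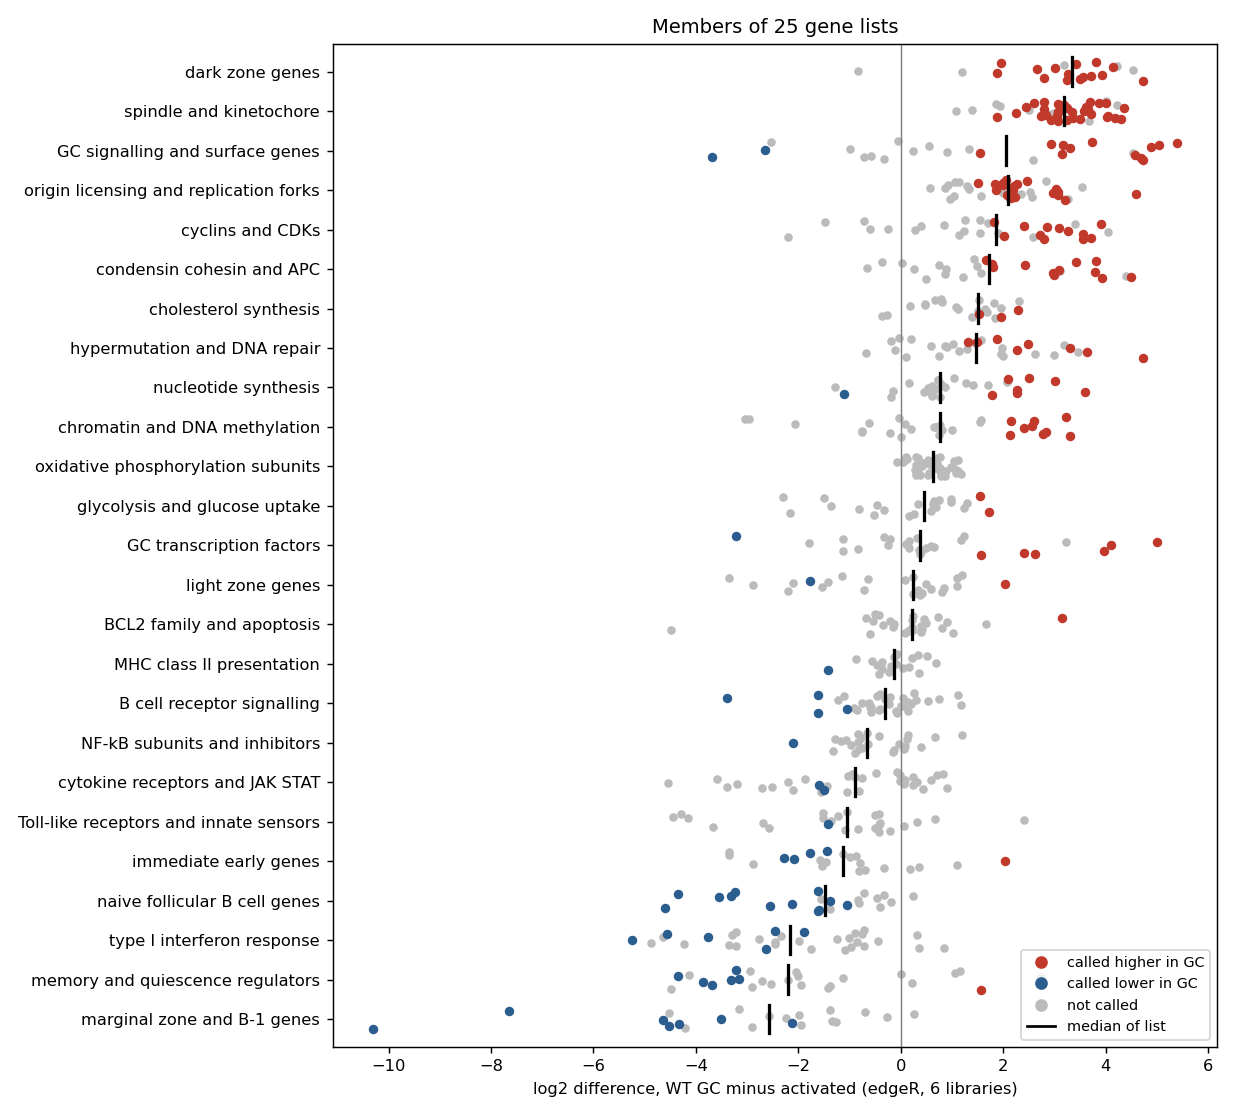
Log2 difference, GC minus activated, of each tested member of 25 gene lists, ordered by the list median (black line), with members called higher in GC cells in red, called lower in blue and not called in grey. Dark zone and spindle genes lie furthest to the right, with medians of 3.35 and 3.19, and marginal zone and B-1 genes furthest to the left, with a median of -2.58.

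Receptors that position B cells in the spleen were mostly on the lower side. Of 25 migration and positioning receptors tested of 28 listed, 6 were called lower and 1, S1pr2, higher (median log2 -1.16; 12 and 1 without GC replicate 3). Ccr7, the receptor for T zone chemokines (ENSMUSG00000037944, chromosome 11, 99144196 to 99155077), had 9.69, 11.1 and 19.6 CPM in GC libraries, against 389, 233 and 367 CPM in activated libraries (log2 -4.61, SE 0.409, adjusted p = 0.00886). S1pr1, the exit receptor for sphingosine 1-phosphate (ENSMUSG00000045092, chromosome 3, 115710433 to 115715072), had 34.8, 6.12 and 33.1 CPM in GC libraries, against 464, 552 and 498 CPM in activated libraries (log2 -4.34, SE 0.636, adjusted p = 0.0191). No GC library came near an activated library for either receptor.

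Ackr3, a scavenger of CXCL12, was at 0 in all 3 GC libraries and had 17.5, 22.1 and 21.8 CPM in activated libraries. Against a floor of 3 counts over the GC group it was at least 153-fold lower in GC cells (adjusted p = 0.0164). The follicle receptor Cxcr5 had 138, 66.9 and 104 CPM in GC libraries, against 157, 219 and 165 CPM in activated libraries, and was not called (log2 -0.81, adjusted p = 0.232). Gpr183, the receptor EBI2 that leads cells to the outer follicle, had 25.03, 87.6 and 41.7 CPM in GC libraries, against 182, 107 and 166 CPM in activated libraries. In edgeR it was called lower without GC replicate 3 (log2 -2.17, adjusted p = 0.00336) and not with it (log2 -1.56, adjusted p = 0.132). With GC replicate 3 kept, the adjusted p of Gpr183 was 0.0225 in DESeq2 and 0.00671 in the edgeR fit of all 17 libraries.

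Naive follicular genes had 12 of 22 called lower and 0 higher (median log2 -1.48; 16 and 0 without GC replicate 3), and Klf2, the factor that maintains S1pr1, was one of them. Klf2 had 32.4, 46.5 and 66.1 CPM in GC libraries, against 374, 406 and 662 CPM in activated libraries (log2 -3.31, SE 0.387, adjusted p = 0.0125). Cr2, the complement receptor CD21, had 141, 176 and 123 CPM in GC libraries, against 351, 1004 and 560 CPM in activated libraries (log2 -2.12, adjusted p = 0.0369). Follicular dendritic cells also express Cr2. Cd55, which protects cells from complement, had 56.1, 193 and 81.5 CPM in GC libraries, against 728, 541 and 676 CPM in activated libraries (log2 -2.56, adjusted p = 0.0339; log2 -3.23 without GC replicate 3). Fcer2a, the IgE receptor CD23, differed by -0.18 on the log2 scale and was not called.

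Regulators of memory and quiescence had 6 of 25 called lower and 1, Bach2, higher (median log2 -2.20; 15 and 3 without GC replicate 3). Hhex, a homeobox factor of memory B cells, had 12.6, 12.2 and 18.1 CPM in GC libraries, against 213, 205 and 209 CPM in activated libraries (log2 -3.86, SE 0.285, adjusted p = 0.00482). Klf3 had 8.96, 26.2 and 8.11 CPM in GC libraries, against 127, 132 and 122 CPM in activated libraries (log2 -3.15, adjusted p = 0.0255; log2 -3.88 without GC replicate 3). Both genes were nearly level across the activated libraries. Bcl2, the survival gene that GC B cells are known to switch off, had 3.93, 0 and 7.50 CPM in GC libraries, against 87.1, 97.8 and 80.7 CPM in activated libraries. Its groups did not overlap. In edgeR it was called without GC replicate 3 (log2 -3.93, adjusted p = 0.000403) and not with it (log2 -4.49, adjusted p = 0.0677). With GC replicate 3 kept, the adjusted p of Bcl2 was 6.4e-05 in DESeq2 and 0.00058 in the edgeR fit of all 17 libraries. The other 26 genes tested of the BCL2 and apoptosis list held 1 called gene, Fas, and without GC replicate 3 the whole list had 4 called higher and 1, Bcl2, lower. Mcl1 differed by -0.68 and Bcl2l11 by -0.14 on the log2 scale, neither called.

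Marginal zone and B-1 genes had 7 of 21 called lower and 0 higher (25 listed, median log2 -2.58; 17 and 0 without GC replicate 3). As a sum they stood at 458, 762 and 433 CPM in GC libraries, against 1854, 2813 and 2248 CPM in activated libraries, and the part of cells of these types in the activated sort was not tested. Cd1d1, which presents lipids, had 4.78, 15.7 and 6.06 CPM in GC libraries, against 185, 231 and 189 CPM in activated libraries (log2 -4.53, SE 0.521, adjusted p = 0.0121; log2 -5.20 without GC replicate 3). Fcrl5, a receptor of marginal zone and B-1 cells, had 1.72, 11.6 and 5.85 CPM in GC libraries, against 140, 164 and 166 CPM in activated libraries (log2 -4.64, adjusted p = 0.0183; log2 -5.33 without GC replicate 3). Hes1, a NOTCH target, had 4.54, 5.68 and 8.11 CPM in GC libraries, against 82.1, 53.4 and 73.6 CPM in activated libraries (log2 -3.50, adjusted p = 0.0124).

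Type I interferon response genes had 6 of 32 called lower and 0 higher (34 listed), with a median log2 difference of -2.16, and 21 and 0 without GC replicate 3. Trim30a, an interferon-induced TRIM gene, had 46.4, 51.3 and 55.1 CPM in GC libraries, against 222, 164 and 177 CPM in activated libraries (log2 -1.88, SE 0.249, adjusted p = 0.0144). Ddx58, which encodes the RNA sensor RIG-I, had 20.5, 21.9 and 14.5 CPM in GC libraries, against 75.7, 152 and 123 CPM in activated libraries (log2 -2.63, SE 0.373, adjusted p = 0.0179). Oasl1 had 1.59, 3.50 and 2.05 CPM in GC libraries, against 29.99, 30.3 and 36.7 CPM in activated libraries (log2 -3.77, adjusted p = 0.0181). These genes were low in each GC library, GC replicate 3 included. The transcription factor Irf1 was called lower too (log2 -1.78). So was Ifngr2 (log2 -1.50), a chain of the interferon gamma receptor, which belongs to the cytokine receptor list and not to this one.

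The letters GAAANNGAA, a short form of the interferon-stimulated response element, were in 16 of 29 promoter windows (55.2%) of the 24 interferon genes that matched of 34, against 8.56% of all windows. The Ddx58 window is shown with its match, on the opposite strand, in capitals.
Ddx58 (chr4:40239776-40240075, minus strand): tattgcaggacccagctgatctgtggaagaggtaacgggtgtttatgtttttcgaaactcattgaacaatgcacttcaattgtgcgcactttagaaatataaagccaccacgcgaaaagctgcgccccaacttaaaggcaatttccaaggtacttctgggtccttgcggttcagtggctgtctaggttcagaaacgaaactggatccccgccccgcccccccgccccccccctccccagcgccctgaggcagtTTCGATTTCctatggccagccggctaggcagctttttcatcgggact

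MHC class I genes, which present peptides to cytotoxic T cells, had 3 of 18 called lower and 0 higher (6 and 0 without GC replicate 3), of which H2-K1 had 694, 933 and 773 CPM in GC libraries, against 2049, 2018 and 2162 CPM in activated libraries (log2 -1.38, adjusted p = 0.0261). H2-D1 had 1316, 1443 and 1389 CPM in GC libraries, against 3032, 2919 and 3227 CPM in activated libraries (log2 -1.15, adjusted p = 0.0345). H2-Q7 was the third (log2 -2.17), and since genes of this family are near-identical in parts, its reads may be shared with its neighbours. MHC class II genes had 1 of 19 called lower (2 without GC replicate 3), Ctss, the protease that trims the invariant chain, with 246, 335 and 318 CPM in GC libraries against 890, 638 and 861 CPM in activated libraries (log2 -1.41, adjusted p = 0.0299). The class II chain genes H2-Aa, H2-Ab1 and H2-Eb1 differed by -0.36, 0.04 and -0.09 on the log2 scale, none of them called.

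Antigen receptor signalling genes had 4 of 35 called lower and 0 higher (median log2 -0.30). Without GC replicate 3 the counts were 4 lower and 2 higher, where 10.3% of all genes were called lower and 10.02% higher. Ptpn22, a phosphatase that dampens receptor signals, had 17.1, 6.77 and 16.5 CPM in GC libraries, against 102, 175 and 147 CPM in activated libraries (log2 -3.38, SE 0.452, adjusted p = 0.0150). Bank1, an adaptor below the receptor, had 421, 217 and 370 CPM in GC libraries, against 826, 1257 and 1001 CPM in activated libraries (log2 -1.61, adjusted p = 0.0410). Rasgrp2 and the inhibitory receptor gene Cd72 completed the 4 (log2 -1.61 and -1.06). Syk, Btk and Blnk, which carry the signal inwards, differed by -0.41, -0.10 and 0.14 on the log2 scale and were not called.

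NF-kB and ETS genes bear on the subject of the study. Of 25 NF-kB subunits, inhibitors and regulators 1 was called lower and 0 higher (median log2 -0.67; 4 and 0 without GC replicate 3). It was Nfkbid, a nuclear inhibitor family member, with 27.4, 13.8 and 40.4 CPM in GC libraries, against 93.9, 110 and 148 CPM in activated libraries (log2 -2.11, adjusted p = 0.0463). Nfkb2, the source of p52, had 60.5, 44.8 and 55.1 CPM in GC libraries, against 78.5, 140 and 96.6 CPM in activated libraries. These groups did not overlap, and the gene was not called (log2 -0.97, SE 0.312, adjusted p = 0.139; without GC replicate 3 log2 -0.86, adjusted p = 0.0790). The adjusted p of Nfkb2 was under 0.05 in other fits, at 0.0382 in DESeq2 and 0.0244 in the edgeR fit of all 17 libraries. Its partner Relb had 27.1, 0 and 24.8 CPM in GC libraries, against 29.8, 56.5 and 40.0 CPM in activated libraries (log2 -1.28, adjusted p = 0.668). Rel differed by -1.06 (adjusted p = 0.296), and Rela and Nfkb1 by 0.12 and 0.09 on the log2 scale, where the sign of Nfkb1 turned with RLE scaling.

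Ets1 (ENSMUSG00000032035, chromosome 9, 32636221 to 32757820) had 418, 237 and 284 CPM in GC libraries, against 295, 421 and 342 CPM in activated libraries, and the groups overlapped (log2 -0.17, SE 0.289, adjusted p = 0.819; without GC replicate 3 log2 0.00). Of 17 ETS factors tested of 20 listed, Ehf alone was called, higher in GC cells. Without GC replicate 3 Etv3 was called lower as well (log2 -1.25, adjusted p = 0.0285), a gene with 15.2, 96.1 and 10.9 CPM in GC libraries against 27.7, 38.3 and 27.3 CPM in activated libraries, and its sign was the opposite with GC replicate 3 (log2 0.38, adjusted p = 0.860). Ehf had 13.7, 30.2 and 16.5 CPM in GC libraries, against 0, 0 and 0.477 CPM in activated libraries (log2 6.79, SE 1.32, adjusted p = 0.0366). With so few activated reads the fitted difference of Ehf was 6.13 without activated replicate 3 and 10.25 without activated replicate 4.

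Cytokine receptor and JAK STAT genes had 2 of 33 called lower and 0 higher (34 listed, median log2 -0.88; 11 and 1 without GC replicate 3). Il2rg, the common gamma chain shared by several interleukin receptors, had 127, 162 and 177 CPM in GC libraries, against 608, 354 and 439 CPM in activated libraries (log2 -1.59, adjusted p = 0.0305). TNF receptor and costimulation genes had Fas called higher and Tnfrsf18 called lower of 23 tested of 29 listed (3 higher and 4 lower without GC replicate 3). Tnfrsf18, the receptor GITR, had 0.613, 0.437 and 1.13 CPM in GC libraries, against 42.3, 22.1 and 33.5 CPM in activated libraries (log2 -5.41, SE 0.658, adjusted p = 0.0129). Toll-like receptor and innate sensor genes had 1 of 25 called lower, Ly86, which partners the receptor CD180, and 10 lower and 1 higher without GC replicate 3.

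Genes of plasma cells and of secretion had 3 of 30 members called lower and 0 higher (median log2 -0.17; 4 and 0 without GC replicate 3). Irf4, a dose-sensitive factor that promotes plasma cells, had 12.4, 17.9 and 22.6 CPM in GC libraries, against 71.9, 67.7 and 72.1 CPM in activated libraries (log2 -2.0, SE 0.353, adjusted p = 0.0287). Pdia4, a folding enzyme of the endoplasmic reticulum, had 120, 162 and 197 CPM in GC libraries, against 503, 846 and 910 CPM in activated libraries (log2 -2.24, adjusted p = 0.0195). Prdm1, which encodes the plasma cell factor BLIMP-1, had 4.42, 19.2 and 6.98 CPM in GC libraries, against 1.07, 15.6 and 16.7 CPM in activated libraries, and the groups overlapped (log2 -0.13, adjusted p = 0.965). Xbp1 and Jchain differed by 0.26 and -0.09 on the log2 scale, neither called.

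Heavy chain constant regions were described by their share of all heavy chain constant counts in a library. Ighm, the constant region of IgM, took 51.2, 44.3 and 43.0% in GC replicates 1, 3 and 4, against 77.2, 83.2 and 62.0% in activated replicates 1, 3 and 4 (46.1 ± 4.41% in GC and 74.2 ± 10.9% in activated cells, SD, n = 3 each). Ighg1, that of IgG1, took 41.8, 37.4 and 46.3% in GC libraries, against 11.5, 6.91 and 24.0% in activated libraries. Ighd, that of IgD, took 0.825, 0.890 and 0.704% in GC libraries, against 5.74, 4.63 and 3.86% in activated libraries. None of these shares overlapped between groups, and the exact two-sided permutation p was 0.1 for each, which is the smallest that 3 against 3 samples allow. Ighg3 and Ighe shares did not overlap either, with the same p, while the exact permutation p was 0.7 for Ighg2b, 0.6 for Ighg2c and 0.2 for Igha.

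**Figure D3:**
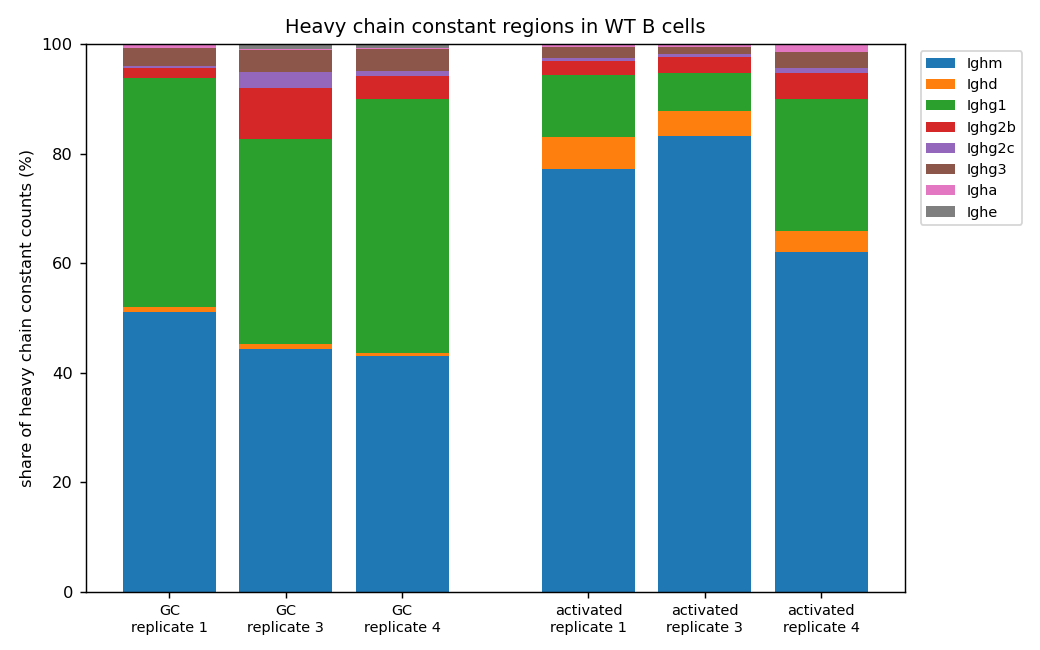
Share of heavy chain constant region counts (%) taken by each constant region gene in each library, GC libraries left and activated libraries right, 1 bar per library. Ighg1 fills 37.4 to 46.3% of the GC bars and 6.91 to 24.0% of the activated bars, and Ighm 43.0 to 51.2% and 62.0 to 83.2%.

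On the CPM scale Ighm and Ighd fell, and Ighg1 was not called, while Igha was called lower too without GC replicate 3 (log2 -2.52 with and without it, adjusted p = 0.101 with it and 0.0456 without). Ighm had 3925, 6729 and 4895 CPM in GC libraries, against 16175, 13285 and 21194 CPM in activated libraries (log2 -1.70, SE 0.332, adjusted p = 0.0366), and Ighd had 63.3, 135 and 80.2 CPM in GC libraries, against 1204, 739 and 1319 CPM in activated libraries (log2 -3.55, SE 0.404, adjusted p = 0.0121). Ighg1 had 3208, 5691 and 5276 CPM in GC libraries, against 2401, 1103 and 8213 CPM in activated libraries, with overlap (log2 0.27, adjusted p = 0.881). Immunoglobulin genes as a whole took 2.12, 6.36 and 3.55% of counts in GC libraries, against 7.83, 4.77 and 10.03% in activated libraries. The constant regions resemble each other, so reads that several of them share may be split or lost.

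Metabolic lists came last. Cholesterol synthesis genes had 3 of 23 called higher and 0 lower (25 listed, median log2 1.51; 15 and 0 without GC replicate 3). Cyp51, which demethylates lanosterol, had 219, 130 and 158 CPM in GC libraries, against 40.0, 50.1 and 41.0 CPM in activated libraries (log2 1.95, SE 0.293, adjusted p = 0.0196). Idi1 and Fdft1 were the others called (log2 2.29 and 1.53). The letters TCACNCCAC, one form of a sterol response element, were in 1 of 20 promoter windows (5.0%) of the 17 genes that matched of 25, against 1.24% of all windows.

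Glycolysis and glucose uptake genes had 2 of 22 called higher and 0 lower (25 listed, median log2 0.46; 9 and 3 without GC replicate 3). Gapdh had 981, 1219 and 1364 CPM in GC libraries, against 424, 250 and 409 CPM in activated libraries (log2 1.72, adjusted p = 0.0277), and Tpi1 differed by 1.55 (adjusted p = 0.0214). The glucose transporter gene Slc2a1 had 27.1, 0 and 27.6 CPM in GC libraries, against 39.3, 60.7 and 55.4 CPM in activated libraries, and was not called (log2 -1.50, adjusted p = 0.599). Oxidative phosphorylation subunits had 0 of 45 called in either direction, although 44 of the 45 differences were positive, with a median of 0.64 on the log2 scale. Without GC replicate 3 their median was 0.37 and 2 were called higher. Fatty acid oxidation genes had 0 of 20 called in either direction, with a median log2 difference of 0.11, and 2 called higher without GC replicate 3.

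The remaining lists had few calls. Their counts without GC replicate 3 stand beside 10.02% of all genes called higher and 10.3% lower in that fit. Glycosylation and sialic acid genes had 2 of 24 called lower and 0 higher (29 listed; 10 and 3 without GC replicate 3). Siglecg, an inhibitory sialic acid receptor, had 331, 194 and 309 CPM in GC libraries, against 805, 779 and 675 CPM in activated libraries (log2 -1.44, adjusted p = 0.0345), and the sialyltransferase gene St3gal1 differed by -2.77 (adjusted p = 0.0238). Genes of the cytoskeleton and its regulators had Stmn1 and Hmmr called higher and Marcks lower of 34 tested of 35 listed (5 and 5 without GC replicate 3). Stmn1, which destabilizes microtubules, had 952, 1538 and 1297 CPM in GC libraries, against 129, 51.3 and 105 CPM in activated libraries (log2 3.74, adjusted p = 0.0121). Regulators of G protein signals had Gna13 and Rgs13 called higher and Rgs18 lower of 28 tested of 31 listed (6 and 8 without GC replicate 3). Of amino acid transport and mTOR genes 1 of 26 was called, Sesn1, an inhibitor of mTORC1, lower in GC cells (log2 -1.62, adjusted p = 0.0373), and 4 were called higher and 1 lower without GC replicate 3. Of 12 noncoding host genes tested of 16 listed the nuclear RNA Malat1 alone was called, with 2022, 1466 and 1261 CPM in GC libraries against 5051, 8281 and 4944 CPM in activated libraries (log2 -1.94, adjusted p = 0.0285), and 3 were called lower without GC replicate 3. Light chain constant regions had 0 of 4 called in either direction, and 3 lower without GC replicate 3.

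Among the genes with the largest differences of all, some stand outside the lists. Tox2, an HMG box factor gene, had 25.5, 29.7 and 18.4 CPM in GC libraries, against 0.535, 0.408 and 0.716 CPM in activated libraries (log2 5.43, SE 0.655, adjusted p = 0.0127). Hbb-bh1, an embryonic globin gene, had 81.8, 94.2 and 90.1 CPM in GC libraries, against 7.50, 0.917 and 1.19 CPM in activated libraries (log2 4.83, SE 0.871, adjusted p = 0.0306; log2 6.37 without activated replicate 1). The adult globin gene Hbb-bt did not follow it, with 31.9, 54.4 and 57.6 CPM in GC libraries against 24.6, 7.54 and 54.3 CPM in activated libraries (log2 0.73, adjusted p = 0.644). Globin genes are alike in sequence, so the assignment of reads between them is uncertain. Flt3, a cytokine receptor listed with dendritic cells and not among the 15 largest differences, had 41.8, 36.5 and 54.8 CPM in GC libraries, against 5.00, 1.53 and 5.01 CPM in activated libraries (log2 3.53, adjusted p = 0.0268). Csf1r of macrophages had 13.99, 0 and 5.55 CPM in GC libraries, against 2.68, 11.6 and 6.56 CPM in activated libraries. Lyz2, also of macrophages, was lower in GC cells without overlap, with 6.50, 0.437 and 5.44 CPM in GC libraries against 28.6, 8.87 and 20.8 CPM in activated libraries. The macrophage markers Adgre1 and C1qa were lower without overlap too, while C1qb overlapped.

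On the lower side, Ccr1, an inflammatory chemokine receptor, had 0.613, 0 and 0.616 CPM in GC libraries, against 50.2, 49.3 and 49.2 CPM in activated libraries (log2 -6.73, SE 0.822, adjusted p = 0.0136). Mgst1, a glutathione transferase, had 0.736, 0 and 0.205 CPM in GC libraries, against 66.6, 27.9 and 39.3 CPM in activated libraries (log2 -6.97, SE 0.975, adjusted p = 0.0174; log2 -8.29 without GC replicate 1). Both were nearly silent in GC cells and read in every activated library. Sox4, a factor of early lymphoid cells, had 0.245, 0 and 0 CPM in GC libraries, against 28.4, 17.6 and 16.5 CPM in activated libraries (adjusted p = 0.0207). Trim30b and Trim30c, copies of Trim30a that may share reads with it, and the interferon-induced GTPase gene Gbp7 were also among the 15 lowest. In all, 14 called genes were at 0 counts throughout the GC libraries, and 1 was at 0 throughout the activated libraries.

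The same contrast was fitted in libraries that the WT fit does not use, those of p52ki mice, with 2 GC libraries (replicates 2 and 5) and 3 activated libraries (replicates 2, 3 and 5). There 399 of 13729 genes (2.91%) were called higher in GC cells and 1677 (12.2%) lower, and the median log2 difference of all genes was -0.32. Without GC replicate 2 this median was -0.46 and without GC replicate 5 -0.83, each resting on a single GC library. The 2 p52ki GC libraries were far apart for some genes. In replicates 2 and 5 Rgs18 had 0 and 105 CPM, Mgst1 62.3 and 0 CPM, and Cdc45 3.65 and 85.5 CPM. Others lay closer, such as Gapdh with 921 and 1046 CPM. Genes detected in these 2 libraries and their agreement were not examined. Of 332 genes called higher in WT and tested in p52ki, 310 were positive and 128 called higher there. Of 224 called lower, 211 were negative and 96 called lower. Over all 12895 genes tested in both, 8430 had the same sign. S1pr2 had 48.1 and 68.4 CPM in p52ki GC libraries, against 0.932, 3.48 and 0.861 CPM in p52ki activated libraries (log2 5.04, adjusted p = 0.0336). Ccr7 had 177 and 87.1 CPM in p52ki GC libraries, against 440, 591 and 312 CPM in p52ki activated libraries (log2 -1.77, adjusted p = 0.0581, beside -4.61 in WT). Cyp51 had 35.99 and 72.1 CPM in p52ki GC libraries, against 42.4, 45.9 and 41.7 CPM in p52ki activated libraries (log2 0.32, beside 1.95 in WT). Whether the contrast differs between the genotypes was not tested, and the library numbers in the labels run apart for the genotypes.

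**Figure D4:**
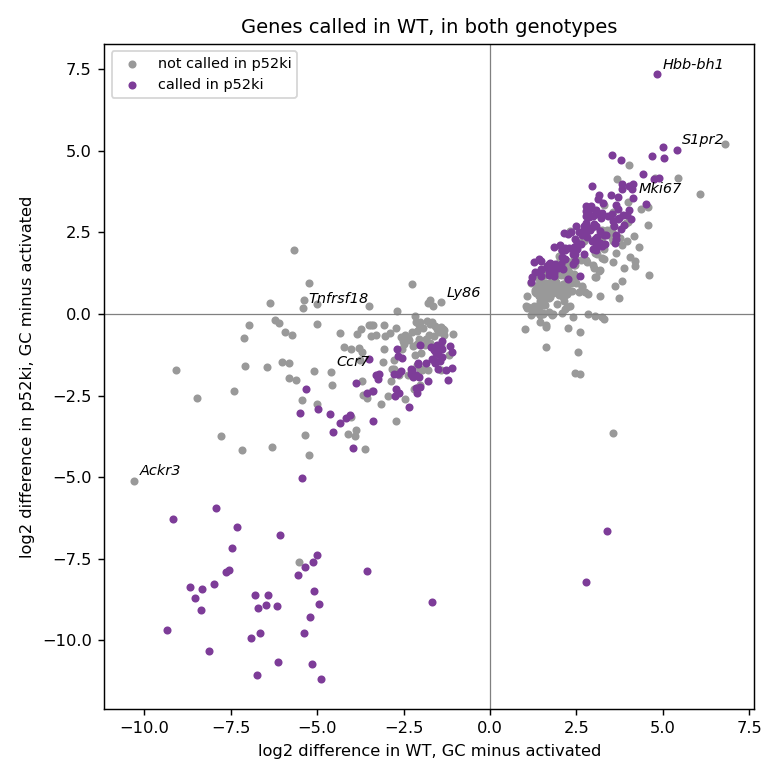
Log2 difference, GC minus activated, in p52ki (vertical axis) against the same in WT (horizontal axis) for genes called in WT and tested in both, purple where also called in p52ki and grey where not, with 7 genes named. Most points on the right lie above 0 (310 of 332) and most on the left below 0 (211 of 224), and no axis value is a test of a difference between genotypes.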

How the data were processed

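RNA was measured in 17 libraries of sorted mouse spleen B cells, of which the 6 of WT GC and activated cells and, beside them, the 5 of p52ki GC and activated cells were used, and the 6 naive libraries were not used here. The deposited file holds raw counts per gene, which the authors made by alignment to GRCm38 with HISAT2 2.1.0 and counting with featureCounts (Subread 1.6.2), with SAMtools 1.8 also used, per the submitters' processing notes. For strandedness, multiply matching reads and the annotation counted, nothing is stated in the sources used here, so genes that overlap, or that resemble each other, may share or lose reads. No molecular identifiers are mentioned in the labels' protocols, and floors therefore cover counting error alone. Symbols and coordinates came from GENCODE mouse release M21 on GRCm38, to which all 55536 identifiers of the table matched.

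The 6 WT libraries were fitted alone in edgeR 4.0.16 (R 4.3.3), after filterByExpr and TMM scaling, with its robust quasi-likelihood fit and F test (glmQLFTest) and Benjamini-Hochberg adjustment over the genes tested, and genes at an adjusted p below 0.05 are termed called. CPM values use the TMM-scaled totals. Raw totals were used for the stricter filter and for the 10 CPM limit in the count of genes missing from a library. Log2 differences are GC minus activated, and SEs were derived from the F statistic. Alternatives were RLE and TMMwsp scaling, other filters, DESeq2 1.42.0, limma 3.58.1 (voom with quality weights), non-robust estimation, the fit of all 17 libraries, a replicate block, a covariate for detected genes per library, the table without immunoglobulin genes, and each library left out. Libraries of a group differed by more than counting error in every pair (chi-square per degree of freedom of 23.7 or more). Repeats amplified apart from 1 sample can do so too, so this cannot tell whether any are repeats. Each library was treated as a separate sample. Shares of heavy chain constant counts were compared by an exact two-sided permutation test. For a gene with no count in a group, the fold bound uses 3 counts over the group.

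Members and lists, 48 in number, were chosen with earlier results of these data known, and no set test was run. The genes named are a set of 26 fixed genes, up to 15 per direction with the largest differences (called, without overlap, at a mean of 10 CPM or more in a group, leaving out variable segments, predicted genes and pseudogenes), and up to 3 called genes per list and direction or, where none was called, the 2 with the smallest p. Some genes under this rule are not reported here. Mcm3 and Cenpf were named for their promoters. Outside this rule, and chosen after their values were seen, are Adgre1, Bank1, Bcl2l11, Blnk, Btk, C1qa, C1qb, Ccnd2, Ccnd3, Cd3d, Cd3e, Cd55, Cdkn1b, Cr2, Csf1r, Cxcl13, Dnmt1, E2f1, Ebf1, Etv3, Fcer2a, Fcrl5, Foxp1, Gcsam, H2-Aa, H2-Ab1, H2-Eb1, Igha, Ighe, Ighg1, Ighg2b, Ighg2c, Ighg3, Irf1, Irf8, Jchain, Klf3, Lyz2, Mbd4, Mcl1, Pax5, Polh, Pou2af1, S100a8, S100a9, Slc2a1, Spib, Syk, Tet2, Ung and Xbp1.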

Additional observations from a re-analysis of the deposited data

Results flagged for a closer look

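For 2 of the 144 named genes, the WT libraries and the p52ki libraries each separated GC from activated cells without overlap, in opposite directions. In WT alone 13.8% of all tested genes were separated upward in GC cells and 19.1% downward. How many of all genes are separated in opposite directions was not counted, and p52ki had only 2 GC libraries. Ly86, whose product partners CD180, had 182, 210 and 265 CPM in WT GC libraries, against 741, 429 and 596 CPM in WT activated libraries (log2 -1.43, edgeR adjusted p = 0.0418). In p52ki it had 741 and 702 CPM in GC libraries, against 472, 607 and 605 CPM in activated libraries (log2 0.36, adjusted p = 0.292). Hspd1, a mitochondrial chaperonin gene, had 131, 96.8 and 102 CPM in WT GC libraries, against 60.5, 87.6 and 71.0 CPM in WT activated libraries (log2 0.59, adjusted p = 0.304). In p52ki it had 55.4 and 23.4 CPM in GC libraries, against 75.0, 72.7 and 101 CPM in activated libraries (log2 -1.08, adjusted p = 0.196). The difference between the genotypes was not tested for either gene.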

How the results depend on the processing

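All 571 calls kept their sign in every alternative in which they were tested, which their lack of overlap makes near certain. The number of calls depended on the method. The count was 569 with RLE scaling, 571 with TMMwsp, 857 (464 higher and 393 lower) with no filter, 593 with a stricter filter, 614 without robust estimation and 553 without immunoglobulin genes. It was 1783 with DESeq2 (797 higher, 986 lower), 4224 with limma voom with quality weights (2055 and 2169), 2081 in the fit of all 17 libraries (891 and 1190) and 2340 with a covariate for detected genes per library (1105 and 1235). Leaving out 1 library gave 0 to 2869 calls, 0 to 1414 of them higher and 0 to 1455 lower. Same-numbered GC and activated libraries did not deviate together (r = -0.29, -0.27 and 0.08 for numbers 1, 3 and 4). These values cannot tell whether a shared number is a shared animal, since GC replicate 3 stood apart and shifts its group mean. In edgeR with the replicate number as a block 0 genes were called in either direction, with 1593 at an unadjusted p under 0.05. In p52ki the 2076 calls became 2102 with RLE scaling, 852 with no filter, 3798 with DESeq2, 0 with the replicate block (1088 at an unadjusted p under 0.05) and 7094 to 8166 with a GC library left out. The cause was not tested for any of these changes.

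Of the 144 named genes, the 115 called kept their sign throughout, which their lack of overlap likewise makes near certain. The sign of 4 that were not called turned. Nfkb1 was at -0.011 with RLE scaling, -0.012 with DESeq2, -0.075 with voom, -0.12 with the covariate and -0.000164 without immunoglobulin genes, and between -0.14 and 0.21 with 1 library left out. Rela was at -0.13 with voom and between -0.10 and 0.27 with 1 library left out. Ets1 ran between -0.51 and 0.0020, and Prdm1 was at 0.31 with the replicate block and between -0.97 and 0.27 with 1 library left out. In GC replicate 3 many genes that both other GC libraries held at 10 CPM or more had no count, 626 in number, which limits what can be read from its zeros at any level.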

Other observations

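Heavy chain variable segments were looked at after the other values were seen. In all 6 libraries the segment with most counts was Ighv1-72, which is known from the response of C57BL/6 mice to the hapten NP. It took 32.5, 27.8 and 32.9% of Ighv counts in GC replicates 1, 3 and 4, against 12.6, 9.43 and 17.9% in activated replicates 1, 3 and 4, and the groups did not overlap. Segments with a count numbered 93, 51 and 98 in GC libraries, against 102, 104 and 104 in activated libraries, where Ighv counts totalled 5220, 8053 and 12411 in GC libraries and 14748, 19252 and 41113 in activated libraries. Segments of this family resemble each other, so their reads are hard to tell apart, and the labels name no immunogen. No test was run on these shares.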
